A study of Homo sapiens with 2 samples.

Results

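The distal long arm of chromosome 5 was described by its peaks of active YAP, called from chromatin of MCF10A cells by immunoprecipitation and sequencing (ChIP-seq). Its members were the peaks on chromosome 5 whose summit lay at or above position 119600000 of hg19, called the bound below. There were 405 such peaks of 9393 in the list (4.31%), and 350 further peaks lay on chromosome 5 below the bound. The members were chosen by their position, and the bound was selected on peak height, at a place where chromosome 5 was seen to differ. With the bound placed about 5 Mb lower or higher, the median height was 27 beyond it and 22 below it, the same as at the bound used. By these medians the bound used did not divide the heights more clearly than either alternative. Further positions were not examined. The height and density of the members are therefore descriptions and were not tested. The series had 2 samples, each with 1 library and no replicate: immunoprecipitated chromatin and input DNA, both from MCF10A cells expressing Flag-tagged YAP-5SA according to the series title, the latter collected without antibody. MCF10A is an immortalized, non-transformed line of human mammary epithelium, although 1 label field of the series calls it a cancer line. The labels do not say how YAP-5SA was delivered to the cells or whether the line was a single clone. Only the peak list of the Flag library was analysed here, its read depth is unknown, and no p-value is given because peaks of 1 library are not replicates of a condition.

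YAP is a transcriptional co-activator that does not bind DNA by itself and reaches chromatin mainly through TEAD transcription factors, often at enhancers that also bind AP-1. The Hippo kinases LATS1 and LATS2 phosphorylate YAP and keep it out of the nucleus. In YAP-5SA the serines that LATS kinases phosphorylate are replaced by alanine, which leaves the protein active. The distal long arm of chromosome 5 is known to carry, among many others, NR3C1 (the glucocorticoid receptor), DUSP1 (a phosphatase that inactivates MAP kinases), WWC1 (also called KIBRA, an upstream activator of the Hippo pathway), a cytokine gene cluster and the clustered protocadherins. No annotation of hg19 was used, and peaks were therefore not assigned to genes. Genes named with a region below only say where that region lies, from general knowledge of the human map, and were chosen after the peak counts had been seen. Their order was read from the RefSeq gene table of GRCh38.

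Peaks were denser beyond the bound. The 405 peaks over 61.05 Mb gave 6.63 per Mb, and the 350 peaks over 113 Mb below it gave 3.09 per Mb, a ratio of 2.15 with a 95% counting interval of 1.86 to 2.48. The length below leaves out the longest stretch without a peak. The file holds no measure of DNA copy number along the chromosome, no correction for it was made, and its part in the density, height and width of these peaks was not tested.

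Peaks were dense along most of the stretch, though unevenly. Of the 12 windows of 5 Mb from 120 to 180 Mb, 10 held at least 25 peaks, and counts ran from 11 to 48. Of the 23 windows that lie wholly before the one with the bound, 3 reached 25 peaks. Over the genome, 15.6% of windows with a peak did. The fullest window was that ending at 150 Mb, with 48 peaks, followed by 45 peaks each in the windows on both sides of 170 Mb. The 2 windows under 25 peaks were those beginning at 160 Mb, with 11, and ending at 180 Mb, with 18. The change at the bound was visible in neighbouring windows, with 12 peaks in the window beginning at 110 Mb, 19 in that ending at 120 Mb (5 of them beyond the bound) and 26 in that beginning at 120 Mb.

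**Figure D1:**
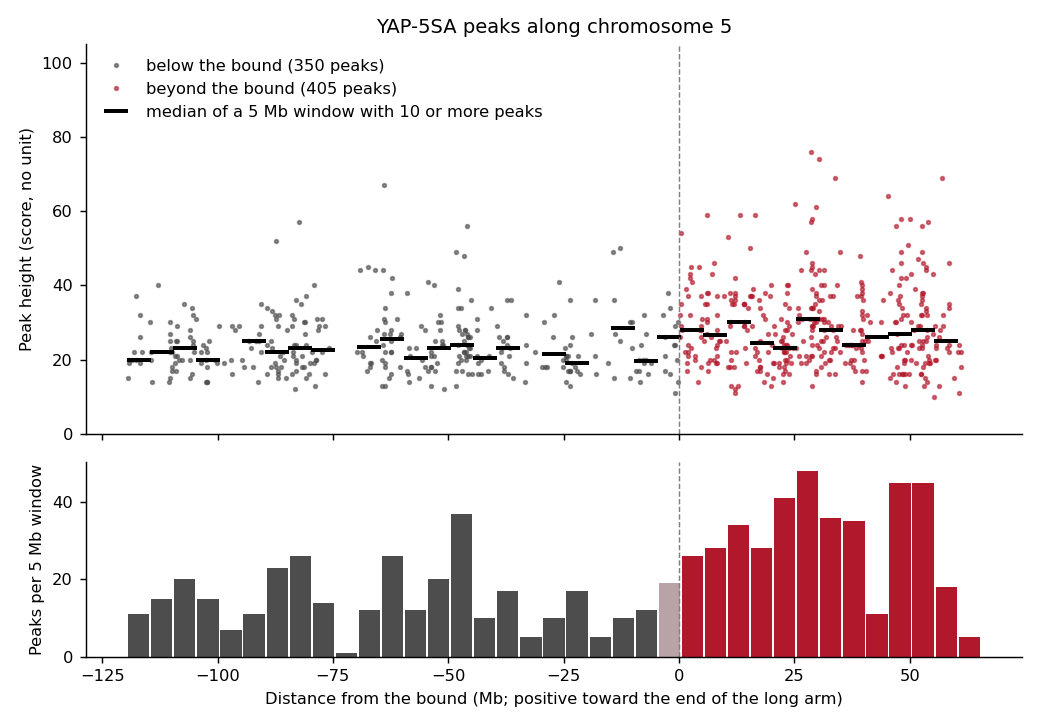
Peaks of chromosome 5 by distance from the bound in Mb. Upper panel: each point is 1 peak with its height (the score deposited by the authors, no unit), and black bars are medians of 5 Mb windows with 10 or more peaks. Lower panel: peaks per 5 Mb window, with the window that contains the bound in a paler shade and the final window reaching past the last peak. Of the 12 windows between 120 and 180 Mb, 10 hold at least 25 peaks, against 3 of the 23 before the window with the bound.

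The height of a peak is the whole number that the authors deposited at its summit, with no unit stated, and it was compared only within this list. Member peaks had heights from 10 to 76, a median of 27 and quartiles of 21 and 36. Those below the bound ran from 11 to 67, with a median of 22 and quartiles of 18 and 28. Peaks of the other chromosomes had a median of 24 and quartiles of 19 and 30. The 2 sides of the bound overlapped over most of their range. By percentile, the 10th percentile was 17 beyond and 16 below, the 25th 21 and 18, the 75th 36 and 28, and the 90th 44 and 34.

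Of the members, 61 had a height of 40 or more (15.1%), against 18 below the bound (5.14%). The share over the whole list was 8.67%. The rule used these heights, so nothing is read from the difference. A height of 18 or less was found for 57 members (14.1%) and 89 peaks below (25.4%), against 21.3% of the list. Per Mb, the counts by height class were as follows, again as a description of values that the bound was selected on. Peaks of height 18 or less numbered 0.934 per Mb beyond the bound and 0.786 below it. At heights of 24 to 29 there were 1.47 and 0.733 per Mb, and at 40 or more 0.999 and 0.159 per Mb.

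**Figure D2:**
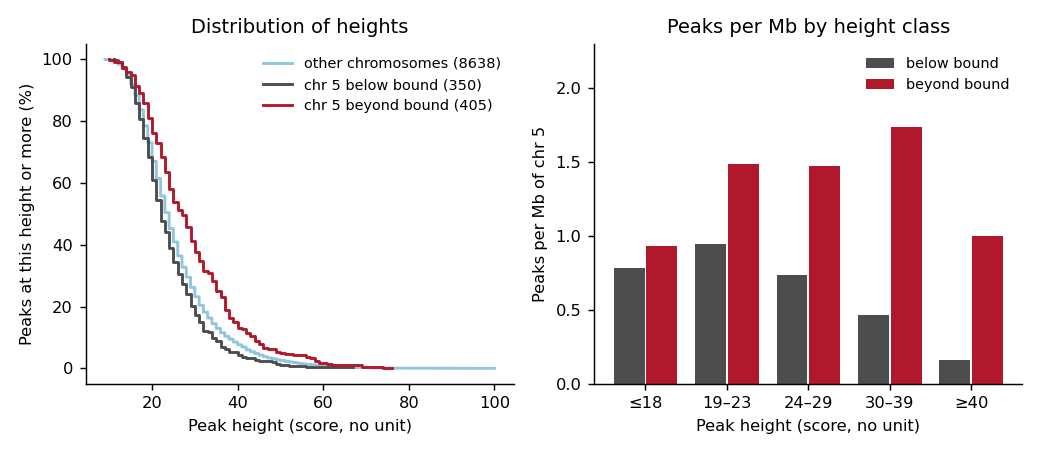
Left: share of peaks at or above each height (score, no unit) for 405 peaks beyond the bound, 350 below it and 8638 on other chromosomes. Right: peaks per Mb on both sides of the bound by height class, with bars from 0. The bound was selected on height, so both panels are descriptions. Peaks of height 40 or more number 0.999 per Mb beyond the bound and 0.159 below it.

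Tall peaks were spread through the stretch. Each of the 12 windows from 120 to 180 Mb held at least 1 peak of height 40 or more. Of the 19 earlier windows with 10 or more peaks, 9 held none, as did 110 of 454 such windows over the genome. The 12 windows held 11 to 48 peaks and the 19 held 10 to 37, and a fuller window holds a tall peak more easily. The bound was selected on height, so these counts are a description. The median height was above that of the list, 24, in 10 of the 12 windows and in 3 of the 19, against 34.1% of the windows with 10 or more peaks over the genome. Window medians beyond the bound ran from 23 to 31. The highest belonged to the window ending at 150 Mb and the next, 30, to that beginning at 130 Mb. The exceptions were the window beginning at 140 Mb, with 41 peaks of median 23, and that ending at 160 Mb, with 35 peaks of median 24. Many peaks and tall peaks thus did not always coincide. Beside the bound itself, the last 3 peaks before it had heights of 20, 30 and 14, and the first 3 members had 26, 32 and 54.

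The 20 tallest members had heights from 51 to 76. Their median width was 708.5 bp, and 10 of them had no other summit within 50 kb. The tallest lay at chr5:148292323-148293204, with a height of 76, and a peak of height 57 at chr5:148293339-148294842 followed 1120 bp on between summits. The second, at chr5:149853431-149854187, reached 74 and had a neighbour 992 bp away. Heights of 69 were found at chr5:153339019-153339658 and chr5:176621218-176621753, and these were single peaks, with the nearest summit 79.1 and 225 kb away. The fifth, at chr5:164952074-164952732, had a height of 64 and was the most remote but 1 of the 20, at 344 kb from the next summit. A height of 62 was reached at chr5:144741581-144742377 and 61 at chr5:149294872-149296497. Both very isolated and closely paired peaks were therefore among the tallest.

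Heights of 59 were found at chr5:125709359-125709986, chr5:132862922-132863591 and chr5:136059730-136060233. The second of these 3 had the greatest distance to another summit of the 20, 564 kb. Heights of 58 were found at chr5:148441852-148443260, chr5:167716738-167717543 and chr5:169577938-169578684. The remaining 6 had heights of 51 to 57 and lay at chr5:173631800-173632396, chr5:166635720-166636376, chr5:172199198-172200188, chr5:119940507-119941118, chr5:130203630-130204343 and chr5:169213089-169213791. The 20 were thus scattered from the first megabase of the stretch to 176.6 Mb, and 5 of them lay in the 5 Mb before 150 Mb. Below the bound the tallest peak, at chr5:55761418-55762006, had a height of 67, and the next 4 had heights of 50 to 57.

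Peaks were spread over most of the stretch, and some megabases held many more than others. Of the 60 megabases from 120 to 180 Mb, 38 held 5 or more peaks and 2 held none, with a median of 5. The 5 fullest held 90 peaks, or 22.2% of the members. First was the megabase from 148 to 149 Mb, with 22 peaks, whose heights spread from 13 to 76 around a median of 31. It is known to carry SH3TC2, ABLIM3 and AFAP1L1 in this order, and the last pair encode actin-binding or actin-associated proteins. Here 6 peaks were 40 or taller, at heights of 44, 76, 57, 45, 46 and 58 in order along the chromosome, and they fell within 205 kb. A run of 6 peaks at chr5:148344982-148366609 had heights of 45, 13, 39, 29, 28 and 29. The lowest of the run thus lay between its highest and its next highest.

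**Figure D3:**
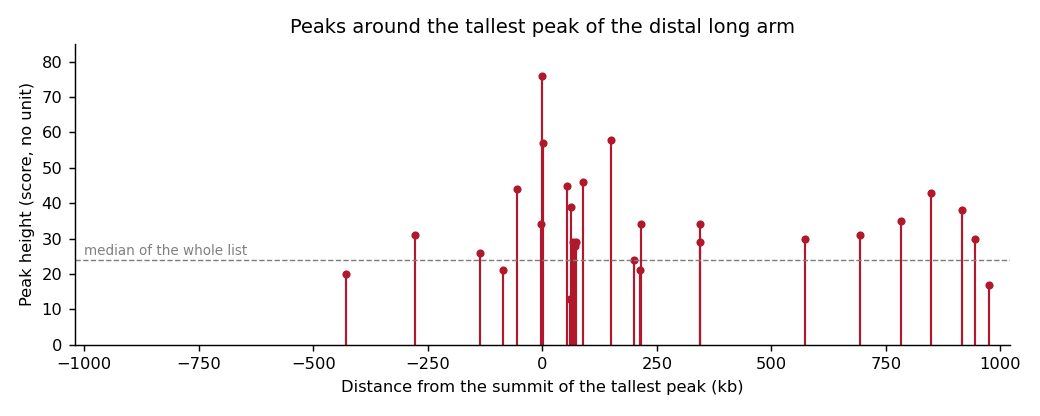
Heights (score, no unit) of the 28 peaks within 1000 kb of the summit of the tallest member, by distance from it in kb. The dashed line is the median height of the whole list, 24. Of the 7 peaks of height 40 or more, 6 lie within 205 kb of one another around the tallest.

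The megabase from 142 to 143 Mb differed in height. Its 20 peaks ranged in height between 14 and 38, their median was 22.5, and none was 40 or taller. It is known to carry ARHGAP26, which encodes a GTPase-activating protein of RhoA, and NR3C1, and the medium of these cells contained hydrocortisone, a ligand of the glucocorticoid receptor. The highest of its peaks, 38, was at chr5:142974680-142976167 and was 1488 bp wide.

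The megabase from 172 to 173 Mb had 17 peaks, which were between 13 and 56 high, with a median of 32. It is known to run from DUSP1 over ERGIC1 and NKX2-5 to STC2, which encodes the secreted glycoprotein stanniocalcin 2. Its 3 peaks of 40 or more were at chr5:172199198-172200188 (56), chr5:172295409-172296663 (49) and chr5:172382435-172383085 (46). Of its 17 peaks, 13 lay in the first 400 kb, and the last 3 had heights of 13, 15 and 19.

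From 159 to 160 Mb there were 17 peaks between 14 and 40 high, with a median of 28. Genes known there include ADRA1B, an alpha-1 adrenergic receptor, and PTTG1, which encodes securin, an inhibitor of sister chromatid separation. From 149 to 150 Mb there were 14 peaks between 16 and 74 high, with a median of 34. Genes known there include PPARGC1B, a co-activator of nuclear receptors, and the receptor tyrosine kinase genes CSF1R and PDGFRB, which are neighbours. Without these 5 megabases the median height of the members was 26, and their density ratio to chromosome 5 below the bound was 1.82 in place of 2.15.

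The megabases from 167 and from 173 Mb also had 14 peaks each. The former, where WWC1 is known to lie, held 5 peaks of 40 or more and had a median height of 35.5. A run of 4 peaks at chr5:167715191-167742542 had heights of 42, 58, 24 and 46. Further along, a peak of height 49 at chr5:167791088-167793675 was 2588 bp wide, the widest of the members.

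Other places had few or no peaks. The longest stretch without a peak ran from 160.9 to 163.3 Mb, or 2.38 Mb. The next longest ran from 163.9 to 165.0 Mb and from 179.1 to 180.2 Mb. Stretches over 1 Mb numbered 3 beyond the bound and 27 below it. The side below is longer and holds fewer peaks per Mb (3.09 against 6.63), and these counts were not corrected for either. The megabase from 140 to 141 Mb, which holds the protocadherin alpha, beta and gamma clusters of cell adhesion genes, had 4 peaks with heights from 15 to 29. Whether reads could be mapped in the stretches without peaks was not examined. Between these extremes, the megabase from 131 to 132 Mb, with cytokine genes from IL3 to IL13, had 9 peaks, a median height of 35 and a highest of 42.

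Member peaks lay close together more often than those below the bound. A second summit within 10 kb was found for 112 members (27.7%, Wilson interval 23.5 to 32.2%) and for 56 peaks below (16.0%, 12.5 to 20.2%), against 19.5% of the list. Both peaks of a close pair are counted, whereas the intervals treat peaks as independent. They are therefore too narrow and do not serve as a test. The median distance to the nearest summit was 37.8 kb and 61.1 kb. Peak density differs between the sides as well, and no spacing was separated from it. With peaks up to 12.5 kb apart counted as 1 group, 132 members (32.6%) fell into 55 groups and 70 peaks below (20.0%) into 31. Groups of 4 or more numbered 6 and 2. With a joining distance of 5 kb the groups of 4 or more were 1 and 0, and with 25 kb they were 9 and 4. Besides the runs given above, those beyond the bound lay at chr5:125709359-125730618, with heights from 30 to 59, at chr5:125769277-125782795, at chr5:127887054-127915312 and at chr5:159326366-159340481, with no height over 38 in the last 3.

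Height by closeness to another peak is given as a description. Members with a summit within 10 kb had a median height of 29.5, and the 175 members with none within 50 kb had 25. Below the bound these medians were 23 and 22.

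Width was not part of the rule, and across peaks of the whole list its rank correlation with height was weak (Spearman's rho = 0.15, a description across peaks). Members had a median width of 666 bp (95% interval 645 to 693) and quartiles of 572 and 806 bp. Below the bound the median was 583 bp (566 to 593) and the quartiles were 500 and 658 bp. Peaks of the other chromosomes had a median of 610 bp. A width of 900 bp or more was found for 63 members (15.6%, 12.4 to 19.4%) and for 17 peaks below (4.86%, 3.05 to 7.64%), against 8.45% of the list. These intervals treat peaks as independent and cover counting error only, so they do not serve as a test.

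The difference in width was also present among peaks of like height. Within each of the 5 height classes the median width was higher beyond the bound than below: 746 and 579 bp at heights of 18 or less, 595 and 568 bp at 19 to 23, 632 and 590 bp at 24 to 29, 670 and 579 bp at 30 to 39, and 713 and 630 bp at 40 or more. The difference was widest in the lowest class, where the 95% intervals were 701 to 847 bp and 556 to 605 bp. At 30 to 39 they were 638 to 711 bp and 530 to 626 bp. In the other 3 classes the intervals of the 2 medians overlapped. These intervals also treat peaks as independent, and whether they overlap is no test. Across the height classes, median width beyond the bound was high in the lowest, least at 19 to 23 and higher again above that. This shape was not particular to the members. Peaks of the other chromosomes had medians of 605.5 bp at 18 or less, 575 bp at 19 to 23 and 686 bp at 40 or more. The rank correlation of width with height across the 405 peaks was 0.07.

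**Figure D4:**
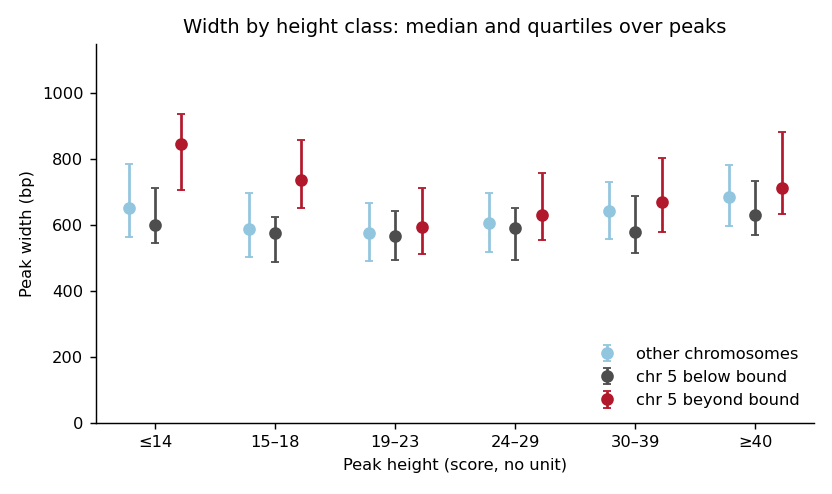
Width in bp by height class (score, no unit) for peaks beyond the bound, below it and on other chromosomes. Points are medians and bars run from the lower to the upper quartile over peaks. Beyond the bound the peaks of height 14 or less have a median of 847 bp and those of 19 to 23 have 595 bp. On other chromosomes these medians are 653 and 575 bp.

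The low, wide peaks were noticed after their values had been seen. Among the 57 members of height 18 or less, widths ran from 411 to 1391 bp with quartiles of 663 and 894 bp. The 17 of height 14 or less had a median of 847 bp, against 599 bp for 20 peaks below the bound and 653 bp for 449 on other chromosomes. In the same class the 9 peaks of chromosome 20 had a median of 854 bp and the 35 of chromosome 1 beyond its longest peak-free stretch had 742 bp, so such widths were found outside chromosome 5 too. The low members did not sit in 1 place. In the 6 spans of 10 Mb from the bound to 180 Mb the median width of peaks of height 18 or less was between 679 and 792.5 bp, with 4 to 14 such peaks in each. Low peaks had a summit within 50 kb in 50.9% of cases beyond the bound and 49.4% below it. Among the other 22 chromosomes, each taken whole, the median width of such peaks ran from 567 to 762.5 bp. Of these, 1 chromosome, 19, was above the 746 bp of the members. Chromosome 5 taken whole had 623.5 bp, inside this range. The members are a selected part of a chromosome, so their place among whole chromosomes is not a like comparison.

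Chromosome 20 and the far part of chromosome 1, where peaks were also dense, were set beside these values. The 355 peaks of chromosome 20 had a median height of 27, with 14.9% at 40 or more, a median width of 684 bp, 16.6% at 900 bp or wider and 27.9% with a summit within 10 kb. Those of height 18 or less, 44 in number, had a median width of 676.5 bp (746 bp in the members). In every higher class the median of chromosome 20 was above that of the members. It was 670 against 595 bp at 19 to 23 and 674 against 632 bp at 24 to 29. At 30 to 39 it was 680 against 670 bp, and at 40 or more 721 against 713 bp. The 568 peaks of chromosome 1 beyond its longest stretch without a peak had a median height of 25, with 11.4% at 40 or more, a median width of 651.5 bp and 13.9% at 900 bp or wider. These shares of wide peaks were near the 15.6% of the members. None of these differences between regions was tested.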

How the data were processed

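Per the labels' protocols, chromatin was cross-linked with formaldehyde (1%, 15 min) and sonicated, and Flag-M2 beads were applied to 50 ug of it. BWA 0.6.1, MACS and hg19 are named in the submitters' processing notes. How MACS was set, and whether the input served as its control, is not given in the sources used here. The deposited file, per its header lines, has a track of summits with a score and a track of intervals. This score of the authors is called the height, and nothing states what it counts or how it was scaled. Lines of the tracks were paired by order, which put all 9393 summits inside their interval. Intervals are printed 1-based and summits as deposited.

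Medians, densities, windows, groups and distances were computed with Python 3.11.15 (numpy 2.4.6, pandas 2.3.3, scipy 1.17.1). The arithmetic of the density ratio was checked on 20 simulated peak sets with a true ratio of 2. The mean estimate was 1.99, with the true value inside the interval in all 20. Peak counts in these sets were nearly fixed and positions were drawn evenly. The sets therefore cannot show whether the interval is wide enough for peaks that cluster. Shares have 95% Wilson intervals, medians have intervals from binomial order statistics, and density ratios have intervals from the binomial split of the counts. All cover counting error only. The bound, members, classes and lists were chosen with earlier results of these data known. The peaks named were the 20 tallest members, and the regions named were the 5 fullest megabases and the 3 longest stretches without a peak. Other regions were added after their values had been seen. Motifs and positions relative to genes were planned, and could not be computed without sequence and genes of hg19.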

Additional observations from a re-analysis of the deposited data

How the results depend on the processing

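No paired analysis was possible because neither group has a second library. The density ratio across the bound, 2.15, was 3.24 for peaks higher than the list's median height of 24, a restriction that favours the side with taller peaks by construction, and 1.82 without the 5 densest megabases, which was chosen after seeing the data and removes the fullest places of 1 side only. Under the other 5 alternatives (a bound about 5 Mb lower or higher, the 5 Mb before 150 Mb left out, the longest peak-free stretch kept in the length, and peaks under 200 bp apart joined) it ran from 2.06 to 2.26. The difference in median height, 5, ran from 3 to 5 under its 5 alternatives, with the value of 3 for peaks that have no neighbour within 50 kb. The difference in median width, 83 bp, was 80.5 and 77 bp under its 2 alternatives. For peaks of height 18 or less it was 167 bp, and 130 to 167 bp under 4 alternatives added after seeing the data. None of these 18 reversed a direction. For the 5 on height, and for the restriction to higher peaks, the direction followed from the selection of the bound on height. Those are therefore no support. The remaining alternatives used the same peaks, and the bound lay where chromosome 5 was seen to differ. They describe how far the values moved and are no independent support either. The alternatives for motifs, transcription starts and gene density could not be run without sequence and genes of hg19. All values rest on 1 library of unknown depth.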
